A study of Mus musculus with 78 samples.

Results

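Expression of 10 genes of the epithelial-mesenchymal transition (EMT) was followed in mouse embryonic stem cells (mESCs) after degradation of TRIM28, a co-repressor that silences endogenous retroviruses (ERVs). The members were chosen by gene name and not by a cut on their values, but with earlier results of these data known. They are 3 epithelial genes (Cdh1, Epcam, Esrp1), 2 genes of mesenchymal cells (Cdh2, Vim) and the transcription factor genes Snai1, Snai2, Twist1, Zeb1 and Zeb2. All 10 were found among the 54446 gene IDs of the RNA-seq tables and among the 54435 gene IDs of the nascent RNA table.

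The tagged line is derived from V6.5 mESCs and carries FKBP at the N terminus of TRIM28 together with an mRuby2-P2A cassette, so that dTAG-13 leads to loss of the TRIM28 protein. It was sorted and grown from single colonies, and no protein level was analysed here. For the time course, mRNA libraries were made from 3 samples each in DMSO and after 2, 6, 24 and 96 h with 500 nM dTAG-13. Newly made RNA was measured by TT-SLAM-seq, in which RNA is labelled with 500 µM 4-thiouridine for 15 min, in 3 samples each in DMSO and after 2, 6 and 24 h. These cells were expanded in serum and LIF on irradiated embryonic fibroblasts, the feeders, which were depleted before the experiments. The DMSO samples of both assays are labelled 0 h, so time in culture and time with dTAG-13 cannot be told apart. Messenger RNA was also sequenced from 3 samples each of untreated parental V6.5 mESCs without the tag and of neural progenitor cells (NPCs) of the V6.5 strain kept with bFGF and DMSO. The shERV line is a TRIM28-FKBP line in which short hairpin RNAs against the ERV families IAP, MMERVK10C, MMERVK9C and MMETn are induced by doxycycline (Dox). Its libraries hold total RNA rather than mRNA and form 3 groups of 3, namely DMSO, dTAG-13 (24 h) and dTAG-13 plus Dox. The titles give Dox to the last of these groups alone, whereas the treatment text of all 3 names 2 µg/ml Dox for 24 h beforehand, so what the first 2 groups received is uncertain. The study's methods describe feeder removal for RNA-seq in general, whereas the labels of the parental and shERV cells mention culture on feeders and no removal. ChIP-seq, with or without degradation for 24 h, covered H3K27Ac and H3K9me3 with 3 libraries per group and RNA polymerase II (RNAPII) and the Mediator subunit MED23 with 2. The study calls its replicates biological, but no label says that samples of a group came from separate cultures, and p-values measure the spread between these samples.

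In mm10 coordinates of the RNA-seq tables, Cdh1 spans chr8:106603351-106670246 (plus strand), Epcam chr17:87635979-87651106 (plus) and Esrp1 chr4:11331933-11386783 (minus). Cdh2 spans chr18:16588877-16809246 (minus) and Vim chr2:13573927-13582826 (plus). The factor genes lie at chr2:167538195-167542814 (Snai1, plus), chr16:14705852-14709385 (Snai2, plus), chr12:33957671-33959829 (Twist1, plus), chr18:5591860-5775467 (Zeb1, plus) and chr2:44983632-45117395 (Zeb2, minus). Zeb2 overlaps the antisense gene Zeb2os and Zeb1 overlaps the antisense gene Gm10125 near its start. Nascent reads were counted by strand. The strand setting behind the RNA-seq tables is not given in the sources used here, so in mRNA the reads of these partners may be shared. Zeb2os averaged 0.0812 TPM in DMSO and 0.727 TPM at 96 h, far below Zeb2 itself.

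In EMT, epithelial cells lose their contacts and take on the shape and motility of mesenchymal cells. E-cadherin (Cdh1) and EPCAM hold epithelial cells together, and ESRP1 directs the epithelial pattern of splicing. N-cadherin (Cdh2) and the intermediate filament protein vimentin (Vim) are typical of mesenchymal and neural cells. The zinc finger proteins SNAI1, SNAI2, ZEB1 and ZEB2 repress Cdh1 through E-box sequences in its promoter, and TWIST1 is a basic helix-loop-helix factor that acts in mesoderm and neural crest. mESCs express E-cadherin strongly, and cadherin switching is known from gastrulation.

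The E-box that SNAI and ZEB proteins bind reads CACCTG, or CAGGTG on the other strand. To show where members carry it, the 250 bases before a RefSeq gene start (GRCm38.p6) were searched on both strands. Windows were at hand for 5 of the 10 members, 8 windows in all, and Cdh1, Esrp1, Snai2, Zeb1 and Cdh2 had none. The 4 windows below lie outside every annotated UTR, read 5′ to 3′ on the strand of the gene, and have the E-box in capitals.
Epcam: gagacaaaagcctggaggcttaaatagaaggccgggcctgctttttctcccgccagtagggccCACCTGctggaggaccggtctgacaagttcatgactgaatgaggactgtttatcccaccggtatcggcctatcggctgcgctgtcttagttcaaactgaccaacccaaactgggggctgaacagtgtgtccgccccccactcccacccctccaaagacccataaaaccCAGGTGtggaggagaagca
Snai1: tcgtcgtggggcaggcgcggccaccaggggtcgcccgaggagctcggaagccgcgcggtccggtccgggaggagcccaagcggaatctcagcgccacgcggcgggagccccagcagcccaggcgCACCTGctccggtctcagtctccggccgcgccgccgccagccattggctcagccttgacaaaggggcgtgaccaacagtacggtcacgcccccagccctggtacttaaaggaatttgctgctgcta
Twist1: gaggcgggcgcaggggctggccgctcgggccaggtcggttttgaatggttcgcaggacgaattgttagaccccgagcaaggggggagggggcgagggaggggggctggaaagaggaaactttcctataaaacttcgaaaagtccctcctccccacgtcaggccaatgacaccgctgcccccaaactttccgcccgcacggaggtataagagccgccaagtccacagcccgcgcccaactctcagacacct
Zeb2: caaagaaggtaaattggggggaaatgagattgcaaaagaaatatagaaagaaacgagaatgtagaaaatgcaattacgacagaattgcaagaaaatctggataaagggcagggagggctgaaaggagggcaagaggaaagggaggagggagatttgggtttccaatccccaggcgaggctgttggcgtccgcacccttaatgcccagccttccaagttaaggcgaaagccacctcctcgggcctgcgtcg
These lie at chr17:87635729-87635978 (Epcam), chr2:167537945-167538194 (Snai1), chr12:33957421-33957670 (Twist1) and chr2:45117443-45117692 (Zeb2, minus strand). The Epcam window held 2 of these E-boxes, starting 187 and 19 bases before the gene start, and the Snai1 window held 1, starting 126 bases before it. The Twist1 window and the 4 windows of Zeb2 held none, and neither did that of Vim. Of 32851 windows of the same length, 17.2% held the motif, so a match describes the sequence and is not evidence of binding.

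Most marker genes went with the labels. ESC markers, 12 genes including Pou5f1, summed to between 5244 and 5674 TPM in the tagged line in DMSO. In NPCs they summed to between 421 and 437 TPM, and 11 of the 12 were lower. Sox2 went the other way, at 422 ± 8.75 TPM in NPCs against 205 ± 8.59 TPM in DMSO. Of the neural markers, 11 of 11 were higher in NPCs. Trim28 mRNA, whose protein is the target, was 622, 622 and 626 TPM in DMSO, and stood at 365 to 382 TPM at 24 h and at 185 to 204 TPM at 96 h. It was higher in the parental line, at 1387 to 1418 TPM. Relative RNA-seq depth ran from 0.328 in replicate 1 of 24 h to 1.73 in replicate 3 of the parental line. TT-SLAM-seq libraries were scaled by the authors to between 6481999 and 24266191 reads.

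In DMSO the cadherin gene Cdh1 and Epcam were the most abundant members of the tagged line, followed by Vim and Esrp1. TPM is scaled by length, so levels can be compared between genes. Cdh1 averaged 368 ± 9.46 TPM (SD, n = 3), Epcam 258 ± 6.68 TPM and Esrp1 44.8 ± 0.389 TPM. Vim lay between Epcam and Esrp1, at 188 ± 9.87 TPM, whereas Cdh2 averaged 7.68 ± 0.289 TPM. The factor genes were all low. Snai1 and Zeb1 came next, at 5.85 ± 0.557 and 5.59 ± 0.231 TPM, and could not be ordered because their libraries overlapped. Twist1 followed at 4.13 ± 0.199 TPM, Zeb2 at 3.42 ± 0.39 TPM and Snai2 at 1.11 ± 0.0998 TPM.

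**Figure D1:**
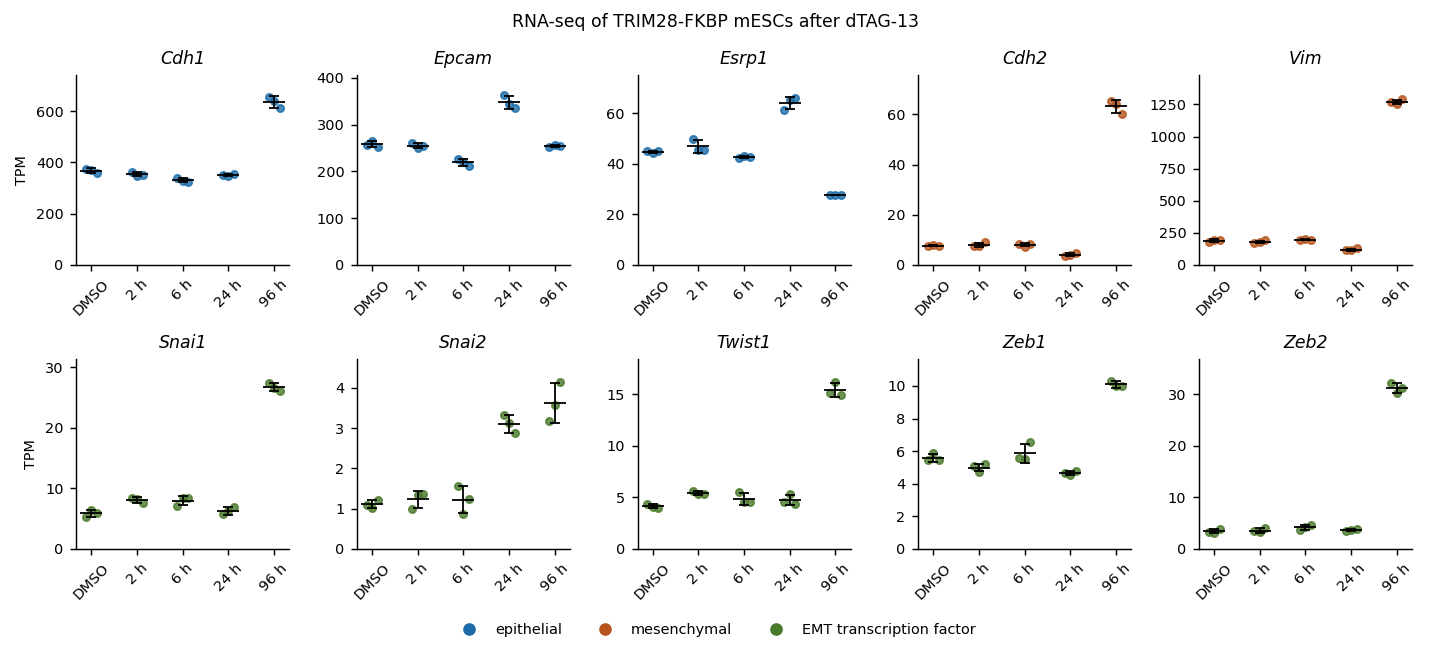
TPM (y axis, from 0, with a scale of its own in each panel) of the 10 genes in each RNA-seq library of the tagged line (points) by hours of 500 nM dTAG-13 (x axis), with the mean of 3 libraries per group. At 96 h Vim reached 1257 to 1290 TPM and Cdh2 60.3 to 65.4 TPM while Cdh1 reached 610.5 to 655 TPM.

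To see whether synthesis of these RNAs changed within hours, TT-SLAM-seq values (FPKM, labelled reads that the authors divided by gene length and library total) were compared with limma on log2(FPKM + 0.5). Genes needed 0.5 FPKM in 3 libraries, which Cdh1, Epcam, Esrp1, Vim and Snai1 reached. Cdh2, Snai2, Twist1, Zeb1 and Zeb2 did not. A gene passed at an adjusted p under 0.05 and was called if it also differed by more than 2-fold.

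Vim passed at 2 h. Its nascent FPKM were 1.46, 1.11 and 1.45 in DMSO and 2.56, 2.42 and 2.49 at 2 h. The groups did not overlap, which held for 3394 of 13357 genes tested, and the log2 change was 0.70 ± 0.11 (SE; adjusted p = 0.0167, limma). This was 1 of 5 members tested, where 3.55% of all genes tested passed, and 0.225% were called against 0 members. That Vim passed rested on single libraries: the adjusted p was 0.0704 and 0.0602 without replicates 1 and 2 of 2 h and 0.0618 without replicate 2 of DMSO. At 6 h none of the 5 passed (limma), against 9.09% of all genes, and Vim stood at 1.55, 1.61 and 2.26 FPKM. None was called at 6 h, against 0.569% of all genes.

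At 24 h all 5 members tested passed, the epithelial genes upwards and Vim downwards. Nascent Epcam was 3.92, 4.03 and 3.47 FPKM in DMSO and 7.13, 7.80 and 7.18 FPKM at 24 h. Each 24 h library was above each DMSO library, with a log2 change of 0.87 ± 0.07 (SE; adjusted p = 4.97e-05, limma). In 6627 of the 13357 genes tested the groups did not overlap, in either direction. Cdh1 went from 5.11 to 6.54 FPKM in DMSO to 8.33 to 9.36 FPKM (log2 change 0.54 ± 0.13, adjusted p = 0.00929). Esrp1 rose from 0.825 to 0.868 FPKM to 1.41 to 1.57 FPKM (log2 change 0.58 ± 0.08, adjusted p = 0.000534). These are the adhesion and splicing genes of epithelia. Snai1 rose by 0.41 ± 0.13 on the log2 scale (adjusted p = 0.0356), and did not pass without DMSO replicate 3 (adjusted p = 0.0972) or without 24 h replicate 2 or 3 (0.116 and 0.0991). Vim fell by 0.48 ± 0.11 on the log2 scale (adjusted p = 0.00845), with 24 h libraries at 0.801, 0.816 and 0.832 FPKM. Of all genes 37.9% passed at 24 h, and 3.4% were called against 0 of the 5 members. The median log2 change was 0.54 over the members and 0.21 over all 13357 genes tested. Relative to that shift, Cdh1 and Snai1 no longer passed (adjusted p = 0.12 and 0.378 with libraries centred on their median).

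Because deposited FPKM came out as whole reads within 0.01 in 100% of values, the reads were also compared directly with voom of limma, scaled by median ratios, an alternative chosen after seeing the data. This reaches the 5 low members. Read numbers per library were 142 to 1157 for Cdh2, 136 to 872 for Zeb1 and 115 to 771 for Zeb2, but 5 to 27 for Twist1 and 2 to 17 for Snai2, too few to show moderate changes. Zeb1 had 136, 258 and 308 reads in DMSO and 783, 709 and 872 at 6 h. As RPM (reads scaled to the library total) these are 18.6, 20.5 and 27.01 against 48.3, 38.8 and 52.6, so the groups did not overlap. Of the 13357 genes tested from FPKM, 4214 did not overlap at 6 h either. The log2 change of Zeb1 was 0.64 ± 0.14 at 2 h (adjusted p = 0.00466, voom), 0.93 ± 0.14 at 6 h (adjusted p = 0.000128) and 0.33 ± 0.14 at 24 h (adjusted p = 0.0719). Zeb2 gave 0.73 ± 0.14 at 6 h (adjusted p = 0.00144) and 0.29 ± 0.15 at 24 h (adjusted p = 0.113). Nascent Cdh2 rose at 2 h and 6 h, by 0.48 ± 0.14 and 0.70 ± 0.14 on the log2 scale (adjusted p = 0.0261 and 0.00155), and fell by 1.37 ± 0.15 at 24 h (adjusted p = 8.92e-07). Its RPM were 36.1, 29.3 and 39.1 in DMSO, 63.8, 51.0 and 69.7 at 6 h, and 16.2, 16.0 and 21.9 at 24 h. Labelled N-cadherin RNA was thus on average highest at 6 h and lowest at 24 h among the 4 groups. Replicate 1 of 2 h, at 53.2 RPM, lay above the lowest 6 h library, and 6 h was not tested against 2 h.

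In the same fit Vim rose by 1.03 ± 0.16 at 2 h (adjusted p = 0.000184, voom) and fell by 1.05 ± 0.18 at 24 h (adjusted p = 9.89e-05), and Cdh1 rose at 2 h by 0.50 ± 0.11 (adjusted p = 0.00358) and gave 0.22 ± 0.11 at 24 h (adjusted p = 0.0983). Of the 10 members, 5 passed at 2 h, 4 at 6 h and 4 at 24 h, against 13.4%, 14.9% and 40.6% of 19039 genes. With the same reads scaled to library totals, 4, 4 and 8 passed, against 9.89%, 15.8% and 46.6% of genes. At 2 h Cdh2 and Cdh1 then gave 0.36 ± 0.16 and 0.38 ± 0.12 and did not pass (adjusted p = 0.147 and 0.0539, voom). At 24 h Zeb1, Zeb2, Cdh1 and Snai1 then passed upwards, by 0.68 ± 0.15, 0.65 ± 0.16, 0.58 ± 0.12 and 0.59 ± 0.23 (adjusted p = 0.000674, 0.00181, 0.000524 and 0.0409, voom). One gene, Gm26917, held 29.3 to 38.7% of the reads in DMSO and at 2 h and 15.3 to 18.5% at 24 h, and its part in the scaling was not tested.

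**Figure D2:**
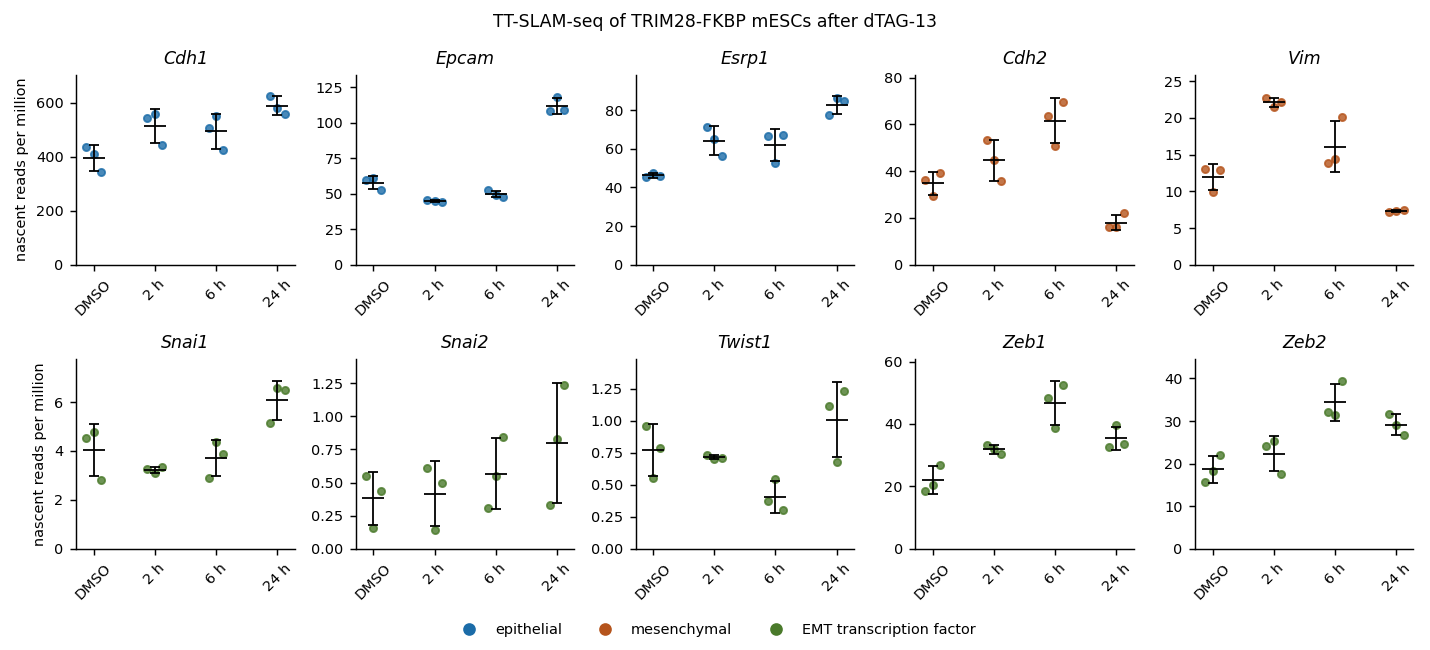
Nascent RNA of the 10 genes in RPM (recovered reads scaled to the library total; y axis, from 0, a scale of its own in each panel) in each TT-SLAM-seq library (points) in DMSO and after 2, 6 and 24 h of dTAG-13, with the mean of 3 libraries. Zeb1 and Zeb2 were highest at 6 h on average, with single 24 h libraries above the lowest of 6 h. Cdh2 rose to 51.0 to 69.7 at 6 h before it fell to 16.0 to 21.9 at 24 h, and Epcam was highest at 24 h.

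In mRNA the first 6 h brought small changes in 4 members. Values are log2(TPM + 0.5), which understates changes of low genes. Snai1 stood at 5.27, 6.38 and 5.88 TPM in DMSO and at 8.36, 8.28 and 7.59 TPM at 2 h. No library overlapped, which was so for 6428 of 17922 genes, and the log2 change was 0.44 ± 0.09 (adjusted p = 0.00408, limma). Twist1 was 4.36, 4.07 and 3.98 TPM in DMSO and 5.60, 5.36 and 5.30 TPM at 2 h (log2 change 0.35 ± 0.09, adjusted p = 0.0152). The 2 h libraries of Twist1 all lay above DMSO, yet the adjusted p was 0.0541 without 2 h replicate 1 and 0.0514 without DMSO replicate 2. These 2 were the members that passed at 2 h, where 15.3% of 17922 genes did, and none was called, against 0.374% of all genes.

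At 6 h Snai1 was still higher, at 7.13, 8.40 and 8.36 TPM (log2 change 0.42 ± 0.09, adjusted p = 0.00242, limma). Epcam fell by 0.24 ± 0.04 on the log2 scale (adjusted p = 0.000294), to 226, 220 and 212 TPM, and Cdh1 fell by 0.16 ± 0.03 (adjusted p = 0.00335), to 338, 327 and 324 TPM. Both adhesion genes lay below every DMSO library, and 8085 of 17922 genes did not overlap with DMSO, in either direction. Thus 3 of 10 members passed at 6 h, against 33.9% of all genes, and none was called, against 0.965%.

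At 24 h Epcam and Esrp1 rose while the mesenchymal genes Cdh2 and Vim fell, and the factor genes other than Snai2 and Zeb1 did not pass. Epcam rose to 362, 344 and 335 TPM from 257, 266 and 252.5 TPM, a log2 change of 0.43 ± 0.04 (adjusted p = 1.25e-07, limma). Esrp1 rose to 61.3, 65.0 and 65.8 TPM from 45.1, 44.3 and 44.9 TPM, a log2 change of 0.51 ± 0.04 (adjusted p = 6.6e-08). In both genes every library of 24 h exceeded every library of DMSO. Cdh1 gave -0.07 ± 0.03 (adjusted p = 0.0926). On the mesenchymal side, Cdh2 fell by 0.88 ± 0.10 on the log2 scale (adjusted p = 1.74e-06), from 7.49, 8.01 and 7.54 TPM to 3.49, 3.77 and 4.65 TPM. Vim fell by 0.67 ± 0.05 (adjusted p = 6.44e-08), from 177, 195 and 193 TPM to 116, 111 and 127 TPM. Again no library overlapped, which was so for 12558 of the 17922 genes tested, in either direction. ESC markers summed to 3536 to 3908 TPM in the same libraries, with 3 of 12 called lower (Pou5f1 by a log2 change of -1.11 ± 0.08, adjusted p = 1.94e-08), and of 12 primitive streak and mesoderm markers 2 were called higher and 2 lower. Their part in these changes was not tested.

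Snai2, which encodes a factor prominent in neural crest, was the member called at 24 h. Its TPM were 1.09, 1.02 and 1.22 in DMSO and 3.33, 3.12 and 2.87 at 24 h, a log2 change of 1.16 ± 0.15 (adjusted p = 8.06e-06, limma). The DMSO level lies near the 1 TPM filter, and the fold was 2.24 on the scale with 0.5 added. Adding 1 instead brought it below 2-fold. Zeb1 fell by 0.24 ± 0.07 (adjusted p = 0.00916), and Snai1, Twist1 and Zeb2 gave 0.09 ± 0.09, 0.17 ± 0.09 and 0.09 ± 0.10 (adjusted p = 0.343, 0.109 and 0.43). In all, 6 of 10 members passed at 24 h and 67.9% of all genes did. The 1 member called higher compares with 10.1% of all genes.

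At 96 h the genes of mesenchymal cells and the EMT factors rose, and Cdh1 rose with them. The comparison is with DMSO samples labelled 0 h, and no DMSO control of 96 h is at hand. Vim went from 177, 195 and 193 TPM in DMSO to 1266, 1257 and 1290 TPM (log2 change 2.75 ± 0.05, adjusted p = 6.34e-15, limma). It thereby became the most abundant member. Cdh2 went from 7.49, 8.01 and 7.54 TPM to 65.4, 64.1 and 60.3 TPM (log2 change 2.96 ± 0.10, adjusted p = 1.04e-12). From 24 h, when both genes were below DMSO, to 96 h Cdh2 rose by 3.84 ± 0.10 and Vim by 3.42 ± 0.05 on the log2 scale (adjusted p = 1.32e-13 and 1.95e-15). Their direction in mRNA therefore turned between 24 h and 96 h.

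All 5 factor genes passed upwards at 96 h, and Zeb2 moved most. Zeb2, which also acts in neural crest, went from 3.27, 3.13 and 3.86 TPM to 32.1, 30.3 and 31.2 TPM (log2 change 3.02 ± 0.10, adjusted p = 1.32e-12, limma). Zeb1 went from 5.43, 5.85 and 5.48 TPM to 10.3, 9.97 and 9.99 TPM (log2 change 0.80 ± 0.07, adjusted p = 9.45e-08) and stayed under 2-fold. So the more abundant of the 2 ZEB genes changed from Zeb1 in DMSO to Zeb2 at 96 h. Snai1 rose from 5.27, 6.38 and 5.88 TPM to 27.5, 26.5 and 26.2 TPM (log2 change 2.10 ± 0.09, adjusted p = 1.24e-11). Twist1 rose from 4.36, 4.07 and 3.98 TPM to 15.2, 16.2 and 14.9 TPM (log2 change 1.78 ± 0.09, adjusted p = 1.05e-10). Both lay far above all earlier libraries, and 14902 of 17922 genes did not overlap between 96 h and DMSO, in either direction. Snai2 reached 3.17, 3.57 and 4.14 TPM (log2 change 1.35 ± 0.15, adjusted p = 8.55e-07). It had passed upwards at 24 h already, and its change from 24 h to 96 h was 0.19 ± 0.15 (adjusted p = 0.252).

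The 3 epithelial members went separate ways at 96 h. Cdh1 rose from 374, 372 and 357 TPM to 655, 641 and 610.5 TPM (log2 change 0.79 ± 0.03, adjusted p = 2.45e-11, limma). Epcam stood at 252, 256 and 254 TPM, within the range of its DMSO libraries (log2 change -0.02 ± 0.04, adjusted p = 0.547). Esrp1 fell by 0.69 ± 0.04 on the log2 scale (adjusted p = 6.34e-10), to 27.5, 27.5 and 27.7 TPM. Against 24 h, Esrp1 fell by 1.20 ± 0.04 and Epcam by 0.45 ± 0.04 (adjusted p = 2.12e-12 and 2.68e-08). E-cadherin mRNA was thus at its highest of the time course in the libraries in which the mRNA of its known repressors Snai1 and Zeb2 was highest too.

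In total 9 of 10 members passed at 96 h, against 80.3% of all genes, and 6 were called higher (Cdh2, Vim, Snai1, Snai2, Twist1, Zeb2), against 20.3%. The median log2 change was 1.57 over the members and 0.05 over all genes tested. Between 24 h and 96 h, 9 members passed, against 79.4% of all genes. Of these 6 were called higher (13.7% of all genes), and Esrp1 was called lower (16.5%). These comparisons share the 96 h libraries. In such bulk samples, fewer cells that express a gene and less RNA per cell cannot be told apart.

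**Figure D3:**
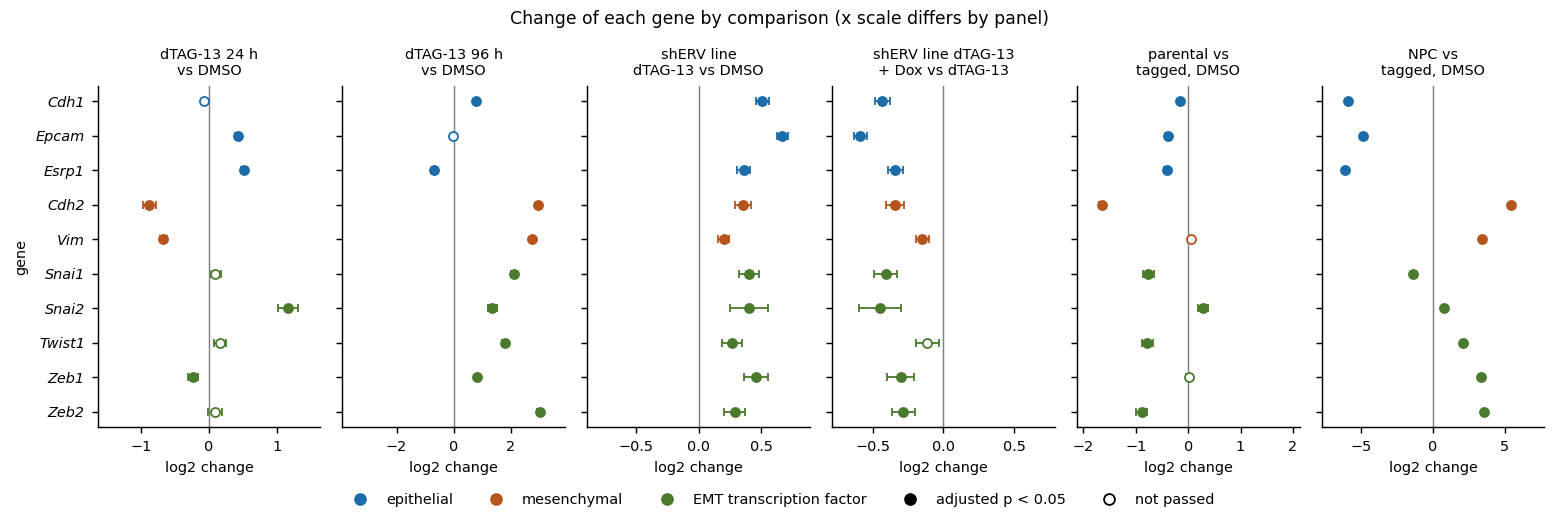
Log2 change (x axis, a scale of its own in each panel) with its standard error for each gene (rows) in each comparison, filled where the adjusted p was under 0.05 and open where it was not. The 96 h panel has Cdh2, Vim and Zeb2 near 3 and Esrp1 left of 0, and the NPC panel separates the 3 epithelial genes and Snai1 from the rest.

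Other EMT genes moved at 96 h in numbers on both sides. Of 40 further epithelial genes, 24 were called higher and 1 lower, with a median log2 change of 1.22, where 20.3% of all genes were called higher. The desmosomal cadherin Dsc2 rose by 3.19 ± 0.06 on the log2 scale (adjusted p = 5.24e-15, limma) and the keratin Krt18 by 3.06 ± 0.05 (adjusted p = 1.33e-15). Rab25, a small GTPase of epithelial vesicle traffic, fell by 1.38 ± 0.12 (adjusted p = 6.66e-08). Of 29 mesenchymal genes tested, 27 were called higher and none lower, with a median of 2.26. Prrx1, a mesenchymal homeobox gene, rose by 3.58 ± 0.12 and the actin-binding Tagln by 3.11 ± 0.07 (adjusted p = 1.5e-12 and 1.57e-14). Among 22 regulators of EMT and TGF-beta signalling, 9 were called higher and none lower, with a median of 0.74. They included the ligand gene Tgfb2 (log2 change 3.26 ± 0.08), its receptor gene Tgfbr2 (2.95 ± 0.14) and the Hippo kinase gene Lats2 (2.31 ± 0.06; adjusted p = 5.71e-14, 4.88e-11 and 2.22e-13). All these medians compare with 0.05 over all genes.

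At 24 h, when 10.1% of all genes were called higher, 3 of 40 genes of the epithelial list were, and 2 of 29 of the mesenchymal list. They were the tight junction genes Tjp3 (log2 change 1.67 ± 0.10) and Cldn3 (1.17 ± 0.06) and the polarity gene Crb3 (1.03 ± 0.11) of the epithelial list, whose median was 0.31 against 0.13 over all genes (adjusted p = 7.83e-09, 1.15e-09 and 9.28e-07, limma). On the mesenchymal list Pdgfrb, a growth factor receptor gene, and the metalloproteinase gene Mmp2 rose by 1.26 ± 0.09 and 1.12 ± 0.05 (adjusted p = 1.75e-08 and 2.34e-10). The median of that list was 0.02. Id2, an inhibitor of E-box factors, fell by 1.02 ± 0.12 in mRNA (adjusted p = 3.38e-06) and by 1.22 ± 0.26 in nascent RNA (adjusted p = 0.00488). In nascent RNA at 24 h, Cldn3 rose by 1.47 ± 0.22 and its relative Cldn6 by 1.18 ± 0.10 (adjusted p = 0.000772 and 4.57e-05), 2 of 29 epithelial genes tested, and Ski, a repressor of SMAD signalling, rose by 1.11 ± 0.07 (adjusted p = 1.75e-05). At 2 h and 6 h no gene of the 3 lists was called in either assay (limma). The miR-200 and miR-205 genes, whose microRNAs are known to target Zeb1 and Zeb2, had 0 to 14 nascent reads per library, so no change could be read.

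Markers of other cell types moved at 96 h together with the mesenchymal members. Of 20 genes fixed as markers of feeder fibroblasts, 15 were tested and 13 were called higher, with a median log2 change of 2.87. Their summed TPM was 189 to 199 in DMSO, 183 to 210 at 24 h and 2136 to 2232 at 96 h. Acta2 alone held a large part of these sums, averaging 74.6 TPM in DMSO and 1170 TPM at 96 h. Col1a1 rose by 4.40 ± 0.09 on the log2 scale (adjusted p = 8.2e-15, limma). In DMSO 9 of the 20 averaged below 1 TPM. The fibroblast genes Fap and Dpt were at 0 in every library of the time course, from DMSO to 96 h. Lum was at 0 in DMSO and at 0.318 to 0.49 TPM at 96 h. The surface marker Thy1 went from 7.85 ± 0.159 to 12.1 ± 0.371 TPM. Of 12 ESC markers, 12 were called lower, to a sum of 469 to 545 TPM, and of 15 endoderm markers 9 were called higher and 2 lower. The part of these cell types in the members' changes was not tested. At 24 h, beside the rise of Snai2, 3 of 15 feeder markers were called higher (10.1% of all genes), Postn by 1.29 ± 0.15, Thbs2 by 1.05 ± 0.11 and Col6a2 by 1.03 ± 0.11 (adjusted p = 4.38e-06, 1.71e-06 and 2.17e-06). All 3 were low, with 24 h means of 1.22, 2.42 and 3.49 TPM. Of the 15, 11 had a log2 change above 0, while Acta2 averaged 74.6 TPM in DMSO and 54.9 TPM at 24 h. The part of feeders in the rise of Snai2 was not tested.

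Ratios within a library do not depend on its scaling. In DMSO the Cdh1 to Cdh2 ratio of TPM was 50.0, 46.4 and 47.3. It became 101, 92.0 and 76.0 at 24 h and 10.0, 10.0 and 10.1 at 96 h. It was thus above every DMSO library at 24 h and below every one at 96 h. The Vim to Epcam ratio moved the opposite way, with 0.689 to 0.763 in DMSO, 0.320 to 0.379 at 24 h and 4.91 to 5.07 at 96 h. Zeb2 to Zeb1 was 0.534 to 0.705 in DMSO and 3.03 to 3.12 at 96 h. In the shERV line in DMSO these 3 ratios were 9.12 to 9.48, 4.45 to 4.83 and 2.28 to 2.91. They lay closer to the 96 h libraries than to the DMSO libraries of the time course, although the shERV libraries are total RNA and were not tested against them.

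**Figure D4:**
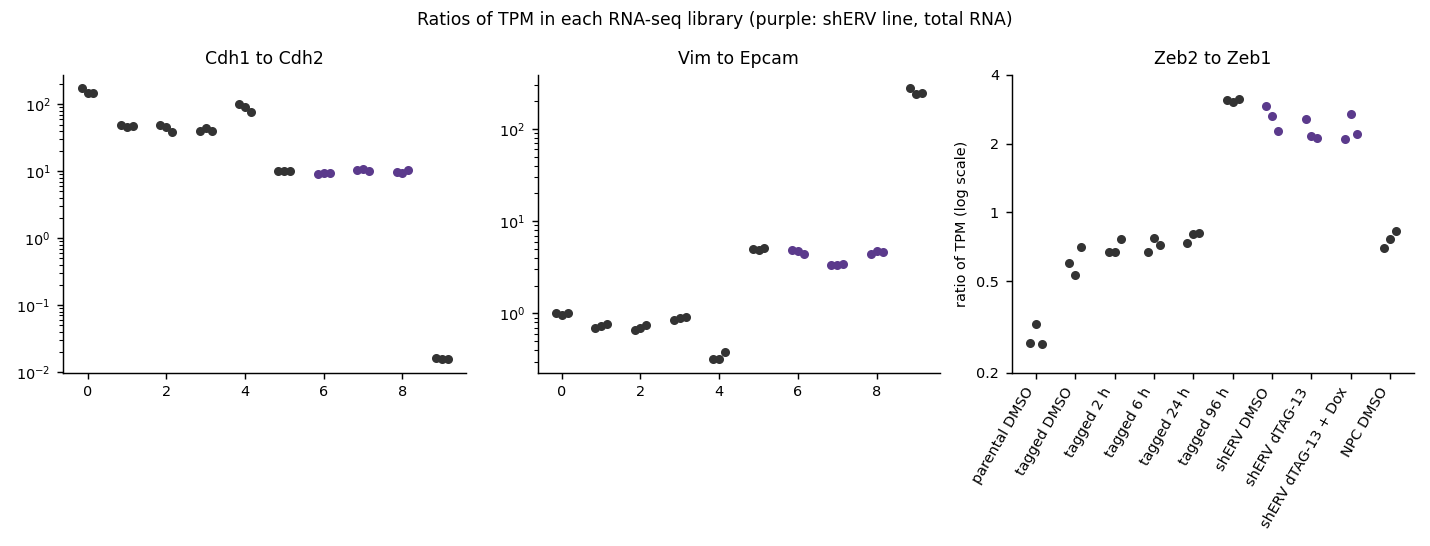
Ratios of TPM (y axis, log scale) of Cdh1 to Cdh2, Vim to Epcam and Zeb2 to Zeb1 in each RNA-seq library (points, 3 per group) across the time course, the shERV line, the parental line and NPCs. Group names and the axis title stand at the Zeb2 to Zeb1 panel and hold for all panels in the same order. The group marked parental DMSO is the untreated parental line. Cdh1 to Cdh2 ran from 146 to 175 in parental mESCs to about 0.0159 in NPCs, and the 3 shERV groups sat near the 96 h group.

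The shERV line was made to reduce the retroviral RNAs during TRIM28 loss. With dTAG-13 for 24 h all 10 members rose, whatever their role, and with Dox added 9 of them were lower than with dTAG-13 alone. Epcam was 121, 132 and 135 TPM in DMSO, 207, 204 and 206 TPM with dTAG-13 and 135, 139 and 136 TPM with dTAG-13 and Dox. The dTAG-13 group stood clear of both others, with log2 changes of 0.67 ± 0.04 against DMSO and -0.59 ± 0.04 on addition of Dox (adjusted p = 3.21e-07 and 1.04e-06, limma). Of 16166 genes, 9536 did not overlap with DMSO and 9509 not with the Dox group, in either direction. Cdh1 was 219, 250.3 and 251 TPM in DMSO, 348, 328 and 349 TPM with dTAG-13 and 250.5, 255 and 254 TPM with both (log2 changes 0.51 ± 0.05 and -0.43 ± 0.05, adjusted p = 1.04e-05 and 4.95e-05). Esrp1 averaged 26.4 ± 1.10, 34.0 ± 1.28 and 26.8 ± 1.05 TPM in the same order (log2 changes 0.36 ± 0.05 and -0.34 ± 0.05, adjusted p = 0.000129 and 0.00027). The epithelial genes with both agents were therefore near their DMSO level.

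The mesenchymal genes and factors rose with dTAG-13 as well, and all but Twist1 fell on addition of Dox. Vim averaged 605 ± 23.8, 695 ± 13.4 and 627 ± 28.8 TPM, and Cdh2 25.8 ± 1.51, 33.2 ± 2.18 and 26.0 ± 1.34 TPM. With dTAG-13 Vim rose by 0.20 ± 0.05 and Cdh2 by 0.36 ± 0.06 on the log2 scale (adjusted p = 0.00353 and 0.000623, limma). Snai1 rose by 0.40 ± 0.08, Zeb1 by 0.46 ± 0.10 and Zeb2 by 0.29 ± 0.08 (adjusted p = 0.00128, 0.00169 and 0.0104). Snai2 and Twist1 rose by 0.40 ± 0.15 and 0.27 ± 0.08 (adjusted p = 0.0394 and 0.0157), which single libraries decided. Without DMSO replicate 1 or dTAG-13 replicate 3, Twist1 had an adjusted p of 0.05005 or 0.0641, and for Snai2 it ran from 0.051 to 0.13 without any one of 5 of the 6 libraries. On addition of Dox, Twist1 gave -0.12 ± 0.08 (adjusted p = 0.273). The other mesenchymal genes and factors fell, from 0.15 ± 0.05 for Vim to 0.45 ± 0.15 for Snai2 on the log2 scale (adjusted p = 0.0211 and 0.0275). Genes that did not pass without 1 library were Vim (Dox replicate 1 or dTAG-13 replicate 3, adjusted p = 0.115 and 0.0813), Zeb1 (Dox replicate 2 or dTAG-13 replicate 3, 0.0929 and 0.0753), Zeb2 (dTAG-13 replicate 1, 0.0586) and Snai2 (Dox replicate 2 or 3 or dTAG-13 replicate 1 or 3, 0.0692 to 0.113).

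The 10 members that passed with dTAG-13 compare with 54% of all 16166 genes tested and the 9 with Dox with 46.8%. No member was called, against 3.82% and 3.45%. The median log2 change of all genes was 0.14 with dTAG-13, that of the members 0.38, and relative to this shift Vim, Twist1, Zeb2 and Snai2 did not pass (adjusted p = 0.405, 0.194, 0.174 and 0.211). Both comparisons share the dTAG-13 libraries. Feeder markers summed to 976 to 1021 TPM in DMSO, 1137 to 1282 TPM with dTAG-13 and 1025 to 1062 TPM with Dox, above the time course up to 24 h and below its 96 h group, with Dpt and Mgp at 0 in all 3 groups. ESC markers summed to 2618 to 3010 TPM in DMSO, 1359 to 1384 TPM with dTAG-13, where 8 of 12 were called lower, and 2899 to 2951 TPM with Dox. The part of either list in the members' changes was not tested. Trim28 mRNA was 252 to 283 TPM in DMSO, 203 to 213 TPM with dTAG-13 and 284 to 285 TPM with Dox, and its part was not tested either. Among the other EMT genes, those called higher with dTAG-13 included Cldn3 and Tagln (log2 changes 1.01 ± 0.07 and 1.01 ± 0.05; adjusted p = 3.01e-07 and 3.65e-08).

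The same 24 h of dTAG-13 gave different responses in the shERV line and in the time course for 6 of 10 members (limma interaction), against 51.4% of 17653 genes. Cdh2 rose by 0.36 in the shERV line and fell by 0.88 in the time course, a difference of 1.24 ± 0.13 (adjusted p = 1.04e-05). Vim rose by 0.20 and fell by 0.67, a difference of 0.87 ± 0.08 (adjusted p = 4.28e-06). Zeb1 rose by 0.46 and fell by 0.24, and Cdh1 rose by 0.51 and gave -0.07. Epcam rose more in the shERV line and Snai2 less. The DMSO controls are labelled 24 h in the shERV line and 0 h in the time course. Control time, cell line and library type differ together here, as do the summed feeder markers and possibly Dox, and cannot be told apart.

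Parental mESCs without the tag had less mRNA of 3 of the 5 factors than the tagged line in DMSO. Cdh2 was lower and was the member called, with 1.88, 2.22 and 2.26 TPM against 7.49, 8.01 and 7.54 TPM (log2 change -1.64 ± 0.06, adjusted p = 2.18e-08, limma). Zeb2, at 1.46, 1.88 and 1.53 TPM, was lower by a log2 change of -0.88 ± 0.10, Twist1, at 2.71, 1.98 and 1.96 TPM, by -0.78 ± 0.11, and Snai1, at 2.97, 3.15 and 3.62 TPM, by -0.76 ± 0.11 (adjusted p = 5.98e-05, 0.000157 and 0.000215). None of these overlapped with DMSO, and neither did 12341 of the 17458 genes tested, in either direction. Epcam and Esrp1 were lower by -0.39 ± 0.05 and -0.41 ± 0.05 (adjusted p = 8.91e-05 and 7.22e-05). Cdh1 was lower by -0.15 ± 0.03 (adjusted p = 0.000752), a direction that turned to 0.04 (adjusted p = 0.248) with libraries centred on their median. Snai2 was higher by 0.29 ± 0.10 (adjusted p = 0.0249), which ran from 0.0627 to 0.079 without DMSO replicate 1 or 2 or parental replicate 1 or 3. Vim and Zeb1 gave 0.06 ± 0.04 and 0.01 ± 0.05 (adjusted p = 0.156 and 0.814).

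Thus 8 members passed between the 2 lines, against 66% of 17458 genes, and 1 was called lower, against 9.15%. Other epithelial genes were lower in the parental line as well, 14 of 40, with Krt18 and Krt8 at log2 changes of -5.19 ± 0.09 and -4.87 ± 0.04 (adjusted p = 4.86e-10 and 8.27e-12). Of 17 feeder markers, 12 were called higher in the parental line, against 393 of 17458 genes. The list of 20 summed to 284 to 290 TPM, with none at 0, and Vim stood at 195 to 198 TPM in the same libraries. Of 12 ESC markers 5 were called higher and none lower, and of 10 primitive streak and mesoderm markers 6 were called lower and none higher. Of 29 mesenchymal genes, 4 were called higher and 6 lower. The share of feeder RNA in these values was not tested. The DMSO libraries serve here and in the time course, so these comparisons are not independent of each other.

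NPCs had the cadherin switch of neural cells. Cdh1 was 5.72, 5.56 and 5.44 TPM against 374, 372 and 357 TPM in the tagged mESCs, and Cdh2 was 352, 352 and 350 TPM against 7.49, 8.01 and 7.54 TPM (log2 changes -5.92 ± 0.03 and 5.43 ± 0.06, adjusted p = 8.12e-15 and 1.05e-12, limma). Esrp1, at 0.159, 0.120 and 0.106 TPM, was lower too (log2 change -6.17 ± 0.05, adjusted p = 2.15e-13), and Epcam averaged 8.14 ± 0.618 TPM (-4.91 ± 0.05, adjusted p = 7.54e-13). Vim was highest of all groups at 2072, 2054 and 2019 TPM. Among the factors, Zeb1 rose to 59.7, 62.0 and 60.0 TPM and Zeb2 to 41.9, 47.7 and 49.8 TPM (log2 changes 3.33 ± 0.05 and 3.58 ± 0.11, adjusted p = 4.98e-12 and 5.53e-10). Twist1 rose by 2.12 ± 0.11 and Vim by 3.44 ± 0.04 (adjusted p = 3.1e-08 and 8.3e-13). Snai2 was higher by 0.76 ± 0.10 (adjusted p = 3.62e-05). Snai1 alone of the factors was lower, at 2.29, 1.82 and 1.80 TPM (log2 change -1.36 ± 0.11, adjusted p = 1.13e-06).

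All 10 members passed in NPCs, against 89% of all genes, with 5 called higher (25.9% of all genes) and 4 called lower (20.7%). Of the other epithelial genes 36 of 40 were called lower, with Cldn4 at -8.12 ± 0.04 (adjusted p = 1.35e-14). Mesenchymal genes were called in both directions, 7 higher and 13 lower of 29. Set beside the 96 h libraries, NPCs paired high Cdh2 with little Cdh1, whereas at 96 h both cadherins were above DMSO, and Zeb1 averaged 60.6 ± 1.24 TPM in NPCs and 10.1 ± 0.2 TPM at 96 h. The 96 h and NPC libraries were not tested against each other.

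ChIP-seq peaks, called by the authors per library, were read within 1000 bases of each gene start as a description, since the number of peaks per library differed widely. RNAPII had 19194 and 19853 peaks in DMSO but 7689 and 8182 at 24 h, and MED23 had 58925 and 63045 against 14551 and 15335. Fewer peaks at the members after dTAG-13 therefore cannot be told apart from fewer peaks in the library. Shares of the starts of 17922 expressed genes are given as background. In DMSO all 10 starts had a MED23 peak in both libraries, against 72.2% of starts, with the highest fold enrichment at Epcam (23.4 and 24.1) and Esrp1 (21.6 and 22.8), followed by Vim (15.5 and 16.4). At 24 h, 4 starts had one in both libraries (20.8% of starts), namely Cdh1, Epcam, Esrp1 and Vim, with enrichment from 3.24 to 6.55. These are the 4 most abundant members in DMSO.

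RNAPII peaks lay at 6 starts in DMSO (Cdh1, Epcam, Esrp1, Snai1, Vim and Zeb2; 52.5% of all starts) and at 2 in both 24 h libraries (26.8%). The RNAPII peak of Epcam had an enrichment of 13.9 to 15.7 in DMSO and 14.4 to 14.9 at 24 h, whereas that of Cdh1 was 24.3 to 29.0 in DMSO and 5.02 to 5.99 at 24 h. Epcam thus had an RNAPII peak near its start in all of these libraries, also in those with fewer peaks. Esrp1, whose RNA also rose at 24 h, had one in both DMSO libraries and in neither 24 h library. H3K27Ac, a mark of active promoters and enhancers, was found in each DMSO library at Cdh1, Epcam, Esrp1 and Snai1, and in each 24 h library at the first 3 of these, against 60.2% and 38.6% of all starts. Epcam had the highest values, 10.6 to 18.6 in DMSO and 5.25 to 15.1 at 24 h. H3K9me3, the mark laid down with TRIM28 at retroviral repeats, had no peak at any of the 10 starts in any of the DMSO or 24 h libraries. Of all starts, 2.81% in DMSO and 0.379% at 24 h had one in every library, and 6.82% and 3.64% in any library.

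**Figure D5:**
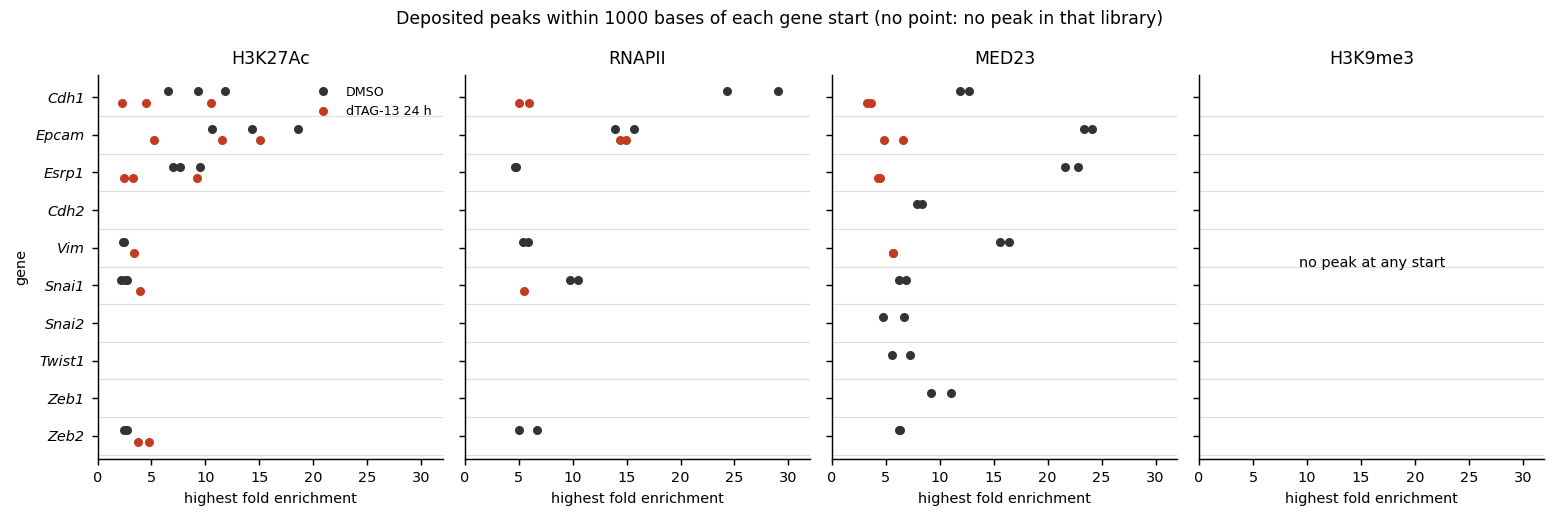
Highest fold enrichment (x axis, from 0) of a deposited peak within 1000 bases of each gene start (rows) for H3K27Ac, H3K9me3, RNAPII and MED23, with 1 point per library for the DMSO and the 24 h group and no point where a library has no peak. MED23 points appear at all 10 genes in DMSO, Epcam keeps its RNAPII peak near 14 at 24 h, and the H3K9me3 panel is empty.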

How the data were processed

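RNA-seq reads were trimmed with cutadapt 2.4, mapped with STAR 2.7.5a to mm10 and assembled with StringTie 2.0.6, per the submitters' processing notes, and the authors deposited TPM per gene, scaled by length and depth. The deposited tables also hold FPKM and mean coverage, and the coverage, which the authors did not scale by depth, served to compare depth between libraries. For TT-SLAM-seq the authors deposited FPKM from reads with T-to-C conversions, found with SLAM-DUNK and counted with htseq-count on GENCODE VM19. Each deposited ChIP-seq peak, called by the authors per library with MACS2, carries a fold enrichment, relative to the background that MACS2 estimated. Each also has a deposited −log10 p and q, not used here.

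The members and lists were chosen with earlier results of these data known. A gene was tested if 3 or more fitted libraries reached 0.5 FPKM or 1 TPM. Values were compared as log2(value + 0.5). The moderated linear models of limma 3.58.1 (R 4.3.3) were used with an intensity trend and Benjamini-Hochberg adjustment over all genes tested. Libraries were fitted together per experiment, 12 for TT-SLAM-seq, 15 for the time course, 9 for the shERV line and 9 for parental, NPC and DMSO libraries, and an interaction was fitted over 12. DESeq2, which the study used on TT-SLAM-seq counts, was not run, since FPKM were deposited. The table of recovered reads was fitted with voom for genes with 10 reads in at least 3 libraries. Tests were checked on simulated data with large changes in genes above the median level, which says little about small changes in low genes. Named are the 10 members, Trim28 and, from each list and comparison, up to 3 called genes in each direction with the largest change. Some genes that this rule names are not reported here. Same-numbered replicates were not paired: the lowest correlation of their deviations ran from -0.205 to 0.0311 across comparisons, and 0.1 was required. Alternatives were other pseudocounts, filters and scaling, the 2 groups alone, a replicate block, each library left out, and other peak windows and ranks.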

Additional observations from a re-analysis of the deposited data

Results flagged for a closer look

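For the shERV line, the response to 24 h of dTAG-13 differed from that in the time course, by a limma interaction test, for 6 of the 10 EMT genes, where 51.4% of 17653 genes differed. Each is given as the log2 change in the shERV line minus that in the time course. The difference was 1.24 for Cdh2 (0.36 against -0.88), 0.87 for Vim (0.20 against -0.67) and 0.58 for Cdh1 (0.51 against -0.07). It was 0.69 for Zeb1 (0.46 against -0.24), 0.24 for Epcam (0.67 against 0.43) and -0.76 for Snai2 (0.40 against 1.16). The adjusted p (limma) was 1.04e-05 for Cdh2, 4.28e-06 for Vim, 4.75e-05 for Cdh1, 0.000494 for Zeb1, 0.00809 for Epcam and 0.00204 for Snai2. The 4 others gave -0.15 (Esrp1), 0.31 (Snai1), 0.10 (Twist1) and 0.20 (Zeb2), with adjusted p of 0.0757, 0.0765, 0.524 and 0.259. DMSO controls are labelled 24 h in the shERV line and 0 h in the time course. Line, library type, control time, summed feeder markers and the uncertain Dox treatment of the shERV line cannot be told apart in these differences. Summed feeder markers were 976 to 1021 TPM in DMSO libraries of the shERV line and 189 to 199 TPM in those of the time course.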

How the results depend on the processing

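Over all alternatives tried, 184 counts of members stayed within 1.5 times the reported count and 10 did not. In TT-SLAM-seq, where no member was called, voom on recovered reads, chosen after seeing the data, called 1 at 2 h and 2 at 24 h with median-ratio scaling, and 1 at 6 h and 1 at 24 h with scaling to library totals. Over all genes it called 387, 341 and 2444 at 2, 6 and 24 h with median ratios, against 30, 76 and 454 from FPKM. In mRNA at 24 h, 0 members rather than 1 were called with a pseudocount of 1 or with genes averaging at least 5 TPM, and 2 rather than 1 in the parental line with a pseudocount of 0.1. Among the 10000 strongest peaks per library, 1 start rather than 3 had H3K27Ac at 24 h, 4 rather than 10 had MED23 in DMSO, and 2 rather than 4 at 24 h. With libraries centred on their median, Cdh1 in the parental line reversed from -0.15 to 0.043 on the log2 scale. Leaving out single libraries kept every count of called members as reported (0, 1, 6, 7 and 9) and moved the count of members whose 24 h response differed from 6 to between 6 and 7. That count was 8 with centred libraries. Of 1031 values for single genes, 983 kept direction and side of the threshold, 47 in 13 results no longer passed and 1 reversed. The replicate block, a fit with replicate number as a term, left every count of called members as it was (1 at 24 h, 6 at 96 h, 7 between 24 h and 96 h, 9 in NPCs, 1 in the parental line, 0 elsewhere) and 6 for the difference in response. All 6 samples correlated best with their own number at 6 h and 96 h of RNA-seq and in NPCs. For mRNA, depth in reads is unknown, and 2 to 27 nascent reads limit Snai2 and Twist1. The cause of these shifts was not tested.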
